A study of Arabidopsis thaliana with 8 samples.

Results

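The SAUR, IAA and GH3 genes of Arabidopsis thaliana, the classical families of fast auxin response genes, were followed in seedlings grown with and without lincomycin. A gene was taken when one of its symbols in the deposited annotation was SAUR, IAA or GH3. with a number, leaving out PBS3, a GH3 enzyme of the salicylate pathway. This gave 120 of 36917 loci, of which 80 carried a SAUR symbol, 32 an IAA symbol and 8 a GH3 symbol. The IAA symbols covered 29 AUX/IAA repressors and 3 auxin response factors, ARF5, ARF7 and ARF19, which carry IAA numbers as second names. The SAUR symbols covered 79 SAUR genes and AT5G01830, an ARM repeat protein listed with SAUR21 as a second name. JAR1 and DFL2, whose GH3 names are spelled differently in the annotation, were not taken.

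RNA was sequenced from seedlings 5 days old in 4 groups with 2 libraries each. These were irx3-2 with lincomycin at 50 µg/ml, irx3-2 on plain Murashige and Skoog (MS) medium, wild type (Col-0) with lincomycin at 50 µg/ml, and wild type on MS. All groups grew at 22 °C with 1% sucrose and were lit without a break at 100 µmol photons m-2 s-1. Lincomycin blocks translation on plastid ribosomes, and IRX3 encodes CESA7, a cellulose synthase needed for secondary walls. The series asks whether a secondary wall defect lessens what lincomycin does to early chloroplast development. Libraries held 15032240 to 19488440 counted reads. Plastid transcripts took 18.8% to 20.7% of the reads on lincomycin and 54.1% to 58.1% on MS. In the deposited values 1 read was worth 0.588 to 0.710 normalized counts on lincomycin and 1.38 to 1.77 on MS. CESA7 transcripts stood at 294 to 712 normalized counts in irx3-2 and 210 to 278 in wild type. The labels do not describe the lesion of irx3-2, so this level does not test the genotype label. Whether the 2 libraries of any group were grown apart is not in the labels either, so a p-value here speaks only for the spread among the libraries sequenced.

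Auxin acts by bringing AUX/IAA proteins to the TIR1/AFB F-box receptors, which mark them for destruction. With the AUX/IAA repressors and their TOPLESS corepressors gone, auxin response factors (ARFs) switch on target genes within minutes. Among these are the AUX/IAA genes themselves, GH3 genes, whose enzymes join auxin to amino acids and so lower free auxin, and SAUR genes, short intronless genes. SAUR proteins of the SAUR19 group keep plasma membrane proton pumps active by inhibiting PP2C.D phosphatases, and the acidified wall then loosens so that hypocotyl and leaf cells expand.

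The feature that ties AUX/IAA proteins to the receptor can be read in their genes. The degron core, searched in frame as the consecutive codons GGN, TGG, CCN and CCN (N for any base) on the coding strand only, was present in 23 of the 29 AUX/IAA genes, against 34 of 27444 protein-coding genes (0.124%). It was absent by this spelling in IAA20, IAA30, IAA31, IAA32, IAA33 and IAA34, and in all SAUR and GH3 members. Below are the coding stretches around the core, in capitals, for the AUX/IAA genes on which the results turn. The letters are from the TAIR10.1 genome of RefSeq, and where the stretch spans an intron the coordinates give its outer ends.
IAA2 (chr3:8181381-8181514, minus strand): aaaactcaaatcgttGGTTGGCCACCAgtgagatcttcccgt
IAA7 (chr3:8195005-8195603, plus strand): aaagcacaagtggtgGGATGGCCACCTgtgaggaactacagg
IAA16 (chr3:1289724-1290214, minus strand): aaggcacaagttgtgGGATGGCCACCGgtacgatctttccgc
IAA19 (chr3:5264301-5264342, plus strand): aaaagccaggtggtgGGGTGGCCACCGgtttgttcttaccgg
IAA26 (chr3:5613656-5613697, minus strand): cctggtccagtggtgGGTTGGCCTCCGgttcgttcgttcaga
IAA29 (chr4:15583936-15583977, plus strand): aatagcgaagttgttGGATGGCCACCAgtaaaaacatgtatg

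ARFs bind the auxin response element, searched here on both strands as TGTCTC or TGTCGG in the 300 bases before the annotated transcript start. It was found in 17 of 32 IAA members (53.1%), 3 of 8 GH3 members (37.5%) and 11 of 80 SAUR members (13.8%), against 17.5% of 27438 protein-coding genes. Among SAUR members called lower on lincomycin in either genotype it was found in 7 of 27 (25.9%), and among those tested and not called lower in 3 of 29 (10.3%). All 3 GH3 members with a match, GH3.2, GH3.3 and GH3.5, were called lower in at least 1 genotype. That was so for 5 of the 7 tested GH3 members, among them GH3.6 and GH3.9, which have no match. The G-box CACGTG, the binding motif of PIF and other bHLH and bZIP factors, was found in 1 of 80 SAUR members (1.25%), 4 of 32 IAA members (12.5%) and 1 of 8 GH3 members (12.5%), against 7.27% of all. A match is a string of letters, and binding was not measured. The upstream stretches of 4 members described below are printed as examples that hold the element. In the SAUR19 to SAUR24 run it was found upstream of 2 of 6 genes, SAUR20 and SAUR22, and it was not found upstream of IAA29. TGTCTC, or GAGACA where it lies on the opposite strand, and CACGTG are in capitals (TAIR10.1, RefSeq, each ending at the base before the transcript start).
SAUR20 (chr5:5966678-5966977, minus strand): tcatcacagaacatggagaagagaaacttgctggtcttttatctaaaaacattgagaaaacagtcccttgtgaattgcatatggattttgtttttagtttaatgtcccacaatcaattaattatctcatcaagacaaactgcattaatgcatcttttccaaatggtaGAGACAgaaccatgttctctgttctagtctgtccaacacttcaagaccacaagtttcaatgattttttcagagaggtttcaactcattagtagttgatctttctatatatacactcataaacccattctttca
SAUR22 (chr5:5975088-5975387, minus strand): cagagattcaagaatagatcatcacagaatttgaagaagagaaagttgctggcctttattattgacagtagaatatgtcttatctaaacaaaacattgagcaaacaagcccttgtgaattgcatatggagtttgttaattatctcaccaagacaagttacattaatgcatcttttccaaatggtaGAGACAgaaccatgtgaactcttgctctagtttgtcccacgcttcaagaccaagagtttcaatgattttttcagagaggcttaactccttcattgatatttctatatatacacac
IAA19 (chr3:5263701-5264000, plus strand): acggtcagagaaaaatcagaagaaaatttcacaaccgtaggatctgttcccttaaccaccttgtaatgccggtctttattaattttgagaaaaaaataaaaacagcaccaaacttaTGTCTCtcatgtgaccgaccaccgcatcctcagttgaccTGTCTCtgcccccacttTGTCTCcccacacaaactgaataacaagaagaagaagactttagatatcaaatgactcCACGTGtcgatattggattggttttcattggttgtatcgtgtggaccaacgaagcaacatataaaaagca
GH3.3 (chr2:9866563-9866862, minus strand): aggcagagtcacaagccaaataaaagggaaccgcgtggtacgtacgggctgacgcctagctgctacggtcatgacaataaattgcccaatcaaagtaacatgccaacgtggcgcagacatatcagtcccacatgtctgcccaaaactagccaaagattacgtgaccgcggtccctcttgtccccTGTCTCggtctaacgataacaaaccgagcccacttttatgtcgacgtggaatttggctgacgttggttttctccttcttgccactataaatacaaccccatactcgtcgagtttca

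Of the 120 members, 90 passed the filter on low values (10 or more normalized counts in 2 or more libraries): 56 SAUR, 27 IAA and 7 GH3 members. Of the 30 others, 5 had 0 reads in all libraries (SAUR2, SAUR13, SAUR18, SAUR44 and SAUR75), and the rest had 2 to 65 reads over the 8 libraries. In these, lack of reads is not lack of transcript: SAUR44 lies wholly within the span of another gene on the opposite strand, and 24 members have some exon bases within the span of a neighbour. Through libraries of a single medium 7 of the 90 passed, GH3.1, SAUR10, SAUR37, SAUR74 and SAUR79 through MS and IAA34 and SAUR54 through lincomycin. Per kilobase of exon and averaged over all libraries, the median level was 117 normalized counts for IAA members, 53.6 for GH3 members and 16.0 for SAUR members. The highest of each family were IAA16 with 1250, SAUR14 with 1105 and GH3.6 with 367 normalized counts per kilobase.

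On lincomycin nearly all SAUR members that passed the test were lower, in both genotypes, and so were most of the GH3 members that passed. IAA members were called in both directions. In irx3-2, 38 of the 90 tested members were called at an adjusted p below 0.05 by limma, 4 higher and 34 lower, where 33.8% of all 20251 genes tested were called, 15.8% higher and 18.0% lower. In wild type, 31 were called, 3 higher and 28 lower, where 29.2% of all genes were called, 12.0% higher and 17.2% lower. Members called lower thus made up 37.8% of those tested in irx3-2 and 31.1% in wild type, and members called higher 4.44% and 3.33%. By family, 42.9% of tested SAUR members fell in irx3-2 and 39.3% in wild type. Of the 7 GH3 members 3 fell in irx3-2 and 5 in wild type. Of the 27 IAA members 25.9% fell in irx3-2 and 3.7% in wild type, and the test of the difference between genotypes, described below, called none of them. The median log2 change was −0.91 in irx3-2 and −0.92 in wild type for SAUR, and −0.23 and −0.02 for IAA members. For GH3 it was −0.90 in irx3-2 and −1.29 in wild type. The wild-type GH3 median is the value of GH3.1, which was not called and passed the filter through MS libraries alone, and it was −0.63 without replicate 1 of wild type on lincomycin and −0.83 with a pseudocount of 5. Over all genes tested it was 0.04 in irx3-2 and 0.02 in wild type. Whole seedlings were sequenced, so fewer cells of a type and less RNA per cell cannot be told apart.

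**Figure D1:**
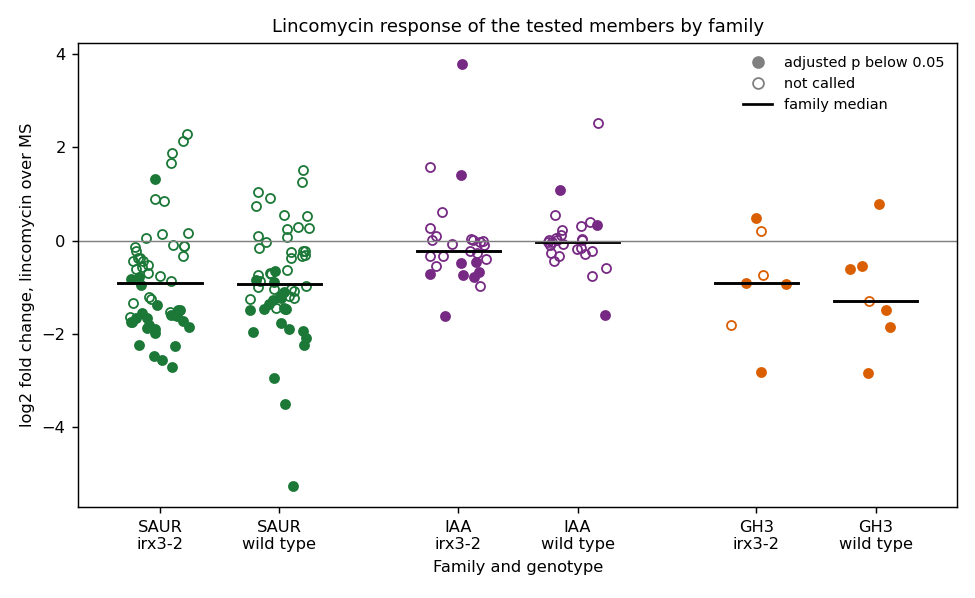
Each point is 1 tested member, placed by its log2 fold change of lincomycin over MS, with irx3-2 to the left of wild type in each family; filled points passed an adjusted p of 0.05 and the bar is the family median. The SAUR medians lie at −0.91 in irx3-2 and −0.92 in wild type, while the IAA medians lie at −0.23 and −0.02.

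Summed over the 80 SAUR members, normalized counts were 3096 and 3450 in irx3-2 on lincomycin, against 6203 and 6992 in irx3-2 on MS. In wild type they were 3499 and 3426 on lincomycin, against 6364 and 5726 on MS. The lincomycin libraries lay below all MS libraries in both genotypes. By limma, 24 of 56 tested SAUR members fell and 1 rose in irx3-2, and 22 fell and none rose in wild type. These comparisons have no library in common, but both take their spread from the same fit of all 8 libraries. In both, 19 members fell, which is 79.2% of the irx3-2 list and 86.4% of the wild-type list. The matching overlap over all genes was not counted. The members that fell had a median MS level of 142 normalized counts in irx3-2 and 112 in wild type, against 20.7 and 25.1 for members not called.

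Many SAUR genes lie in tandem runs, here at least 3 members with gaps of at most 20000 bp, and 28 tested members belonged to 6 such runs. Of these 28, 17 fell in irx3-2 and 16 in wild type. Of the 28 tested members elsewhere, 7 fell in irx3-2 and 6 in wild type. Over all genes tested, 18.0% fell in irx3-2 and 17.2% in wild type. Members outside the runs thus lay nearer to the share of all genes than the pooled members in runs did. The runs differed widely. In wild type all 6 tested genes fell both in the SAUR19 to SAUR24 run and in the SAUR61 to SAUR68 run. In irx3-2, 83.3% and 100% of them fell. Shares in the remaining runs were 16.7% to 33.3% in wild type and 0% to 75.0% in irx3-2. Most SAUR falls were in the runs, and neither share was tested against that of all genes. The SAUR19 to SAUR24 run spans chr5:5962773-5984308 and holds the growth-promoting SAUR19 group. Summed over its 6 genes, normalized counts were 151 and 129 in irx3-2 on lincomycin against 647 and 549 on MS, and 162 and 160 in wild type on lincomycin against 602 and 570 on MS. The highest lincomycin sum, 162, was well below the lowest MS sum, 549.

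SAUR21 had 29.1 and 27.4 normalized counts in irx3-2 on lincomycin, against 186 and 156 on MS. In wild type it had 45.3 and 52.3 on lincomycin, against 172 and 163 on MS. The groups did not overlap in either genotype, and SAUR21 fell by 2.55 ± 0.24 (log2, SE; adjusted p = 1.48e-05) in irx3-2 and by 1.76 ± 0.24 (adjusted p = 0.000251) in wild type. SAUR20, whose upstream stretch is printed above, had 37.6 and 23.5 in irx3-2 on lincomycin against 164 and 175 on MS, and 37.7 and 29.5 in wild type on lincomycin against 138 and 125 on MS. It fell by 2.47 ± 0.29 in irx3-2 (adjusted p = 8.67e-05) and by 1.95 ± 0.29 in wild type (adjusted p = 0.000537). SAUR22, SAUR23 and SAUR24 fell in both genotypes, by 1.54 to 1.98 in irx3-2 and by 1.19 to 2.09 in wild type. In wild type the call of SAUR23 was lost without any one of the 4 wild-type libraries (adjusted p up to 0.124) and with the replicate block (0.0538), and that of SAUR22 without lincomycin replicate 1 (0.0526). SAUR19 was the lowest of the run, with 9.94 and 16.3 in irx3-2 on lincomycin against 35.8 and 28.3 on MS. Its wild-type libraries had 11.2 and 2.46 on lincomycin against 42.9 and 55.3 on MS. It fell in wild type (−2.94 ± 0.61, adjusted p = 0.00443) and did not pass in irx3-2 (−1.25 ± 0.61, adjusted p = 0.139). The coding sequences of this run are 87.7% to 95.2% identical in pairs, and how the authors' counting treated reads that match several places is not stated, so values of single genes in the run may have been shared among them while the sum is less touched. Of the 50-base windows of SAUR19, 18.5% occur elsewhere in the genome, and of those of SAUR20 and SAUR21, 5.83% and 5.19%.

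The run in which every tested gene fell in both genotypes was SAUR61 to SAUR68 on chr1:10301377-10323239, which includes SAUR63, a promoter of hypocotyl and stamen filament elongation. Its sums were 276 and 268 normalized counts in irx3-2 on lincomycin against 767 and 979 on MS, and 368 and 270 in wild type on lincomycin against 869 and 844 on MS. The falls of its 6 tested genes were 1.38 to 2.25 in irx3-2 and 1.23 to 1.94 in wild type (log2); SAUR61 and SAUR68 were too low to test. SAUR64, a well counted one, had 55.4 and 46.4 in irx3-2 on lincomycin against 158 and 165 on MS. In wild type it had 58.3 and 45.5 on lincomycin against 146 and 148 on MS. Of sequence windows of the length used above, 33.9% of SAUR67, 27.1% of SAUR63 and 23.2% of SAUR62 occur elsewhere in the genome. No window of SAUR64 or SAUR65 does. Reads of SAUR62, SAUR63 and SAUR67 may thus have been shared with other genes, so their falls may not be separate ones. SAUR63 lies wholly within the span of an annotated antisense gene, AT1G29435, which had 0 to 4.26 normalized counts; SAUR63 itself had 13.5 and 13.1 in irx3-2 on lincomycin against 64.7 and 69.02 on MS, and 25.3 and 21.5 in wild type on lincomycin against 72.0 and 59.6 on MS. Without replicate 3 of wild type on lincomycin, SAUR62, SAUR63, SAUR65 and SAUR66 were no longer called in wild type (adjusted p = 0.0533 to 0.160), nor was SAUR66 without replicate 2 of wild type on MS (0.108).

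**Figure D2:**
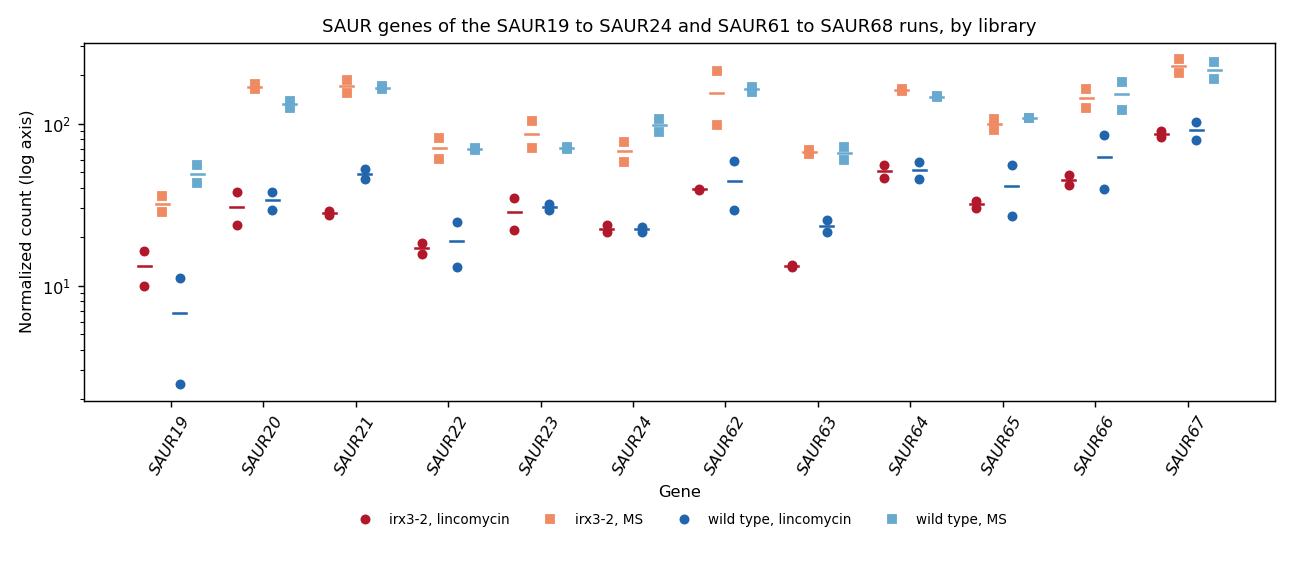
Normalized counts (log axis) of the tested genes of both runs in every library, in the order irx3-2 on lincomycin, irx3-2 on MS, wild type on lincomycin and wild type on MS; bars are group means of 2 libraries. SAUR21 lies at 27.4 to 52.3 on lincomycin and at 156 to 186 on MS, and SAUR64 at 45.5 to 58.3 on lincomycin and at 146 to 165 on MS.

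In each genotype a smaller share of the tested genes fell in the remaining runs. The run of SAUR6, SAUR7 and SAUR12 on chr2:9083906-9090052 had sums of 249.8 and 337 in irx3-2 on lincomycin against 821 and 826 on MS, and 267 and 294 in wild type on lincomycin against 855 and 637 on MS. Most of these counts were of SAUR6, which fell by 1.59 ± 0.17 in irx3-2 (adjusted p = 4.38e-05) and by 1.47 ± 0.17 in wild type (adjusted p = 8.67e-05), while SAUR7 and SAUR12, at 38.9 normalized counts or less, were not called. The run of SAUR49, SAUR50 and SAUR1 to SAUR5 on chr4:16577180-16599568 had sums of 387 and 430 in irx3-2 on lincomycin against 441 and 563 on MS, and 365 and 406 in wild type on lincomycin against 483 and 471 on MS. None of its 6 tested genes was called in irx3-2, and 1, SAUR50, fell in wild type (−0.66 ± 0.22, adjusted p = 0.0462), a call lost without either irx3-2 lincomycin library or any of the 4 wild-type libraries (adjusted p up to 0.240). The run of SAUR26 to SAUR29 and SAUR73 on chr3:976715-983768 had sums of 61.7 and 108 in irx3-2 on lincomycin against 263 and 319 on MS. In wild type its sums were 112 and 110 on lincomycin against 208 and 205 on MS. In irx3-2, SAUR26, SAUR27 and SAUR29 of its 4 tested genes fell, and in wild type SAUR26 did. The irx3-2 calls of SAUR26 and SAUR27 were lost without lincomycin replicate 2 or MS replicate 2 (adjusted p up to 0.229), and the wild-type call of SAUR26 without lincomycin replicate 3 or either MS library (up to 0.255). None of the run was called in the test of the difference between genotypes described below. The run of SAUR13 to SAUR16 had sums of 896 and 900 in irx3-2 on lincomycin against 1556 and 1674 on MS, and 980 and 896 in wild type on lincomycin against 1524 and 1388 on MS. In it, SAUR14 was the highest SAUR gene of all, with 445 and 489 in irx3-2 on lincomycin against 766 and 841 on MS, and 444 and 489 in wild type on lincomycin against 859 and 813 on MS. SAUR14 fell by 0.78 ± 0.12 in irx3-2 (adjusted p = 0.000445) and by 0.84 ± 0.12 in wild type (adjusted p = 0.000302). Its neighbour SAUR15, the SAUR-AC1 gene known as an early auxin marker, was at 15.4 to 34.8 on lincomycin and 24.8 to 40.7 on MS and was not called in either genotype.

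Outside the runs the largest fall was that of SAUR37 (chr4:15193709-15194665). SAUR37 had 1.42 and 1.31 normalized counts in irx3-2 on lincomycin against 9.64 and 21.2 on MS, and 0 reads in both wild-type lincomycin libraries against 39.8 and 34.9 normalized counts on MS. It fell in both genotypes, and the irx3-2 call was lost without either irx3-2 lincomycin library or irx3-2 MS replicate 2 (adjusted p up to 0.091). Against a floor of 3 reads over the group, SAUR37 was at least 41.4-fold lower on lincomycin in wild type. SAUR10 also had 0 reads in wild type on lincomycin, against 9.19 and 11.6 normalized counts on MS, which is at least 11.6-fold lower; in irx3-2 it had 5.68 and 2.61 on lincomycin against 19.3 and 10.6 on MS and was not called. Both passed the filter through MS libraries alone. SAUR51 was the only SAUR member that rose by limma, in irx3-2, with 67.4 and 94.1 on lincomycin against 24.8 and 38.9 on MS (log2 change 1.33 ± 0.35, adjusted p = 0.0138; up to 0.122 without irx3-2 lincomycin replicate 3 or MS replicate 1). In wild type SAUR51 had 44.7 and 55.3 on lincomycin against 30.6 and 37.8 on MS and was not called. SAUR36, linked to leaf senescence, was at 7.10 and 9.15 in irx3-2 on lincomycin against 13.8 and 28.3 on MS, and 22.4 and 17.2 in wild type on lincomycin against 56.7 and 32.0 on MS, with no call.

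Some markers of root tissue, and in wild type of shoot tissue, were called on lincomycin too. The sum of 10 root markers was 453 to 580 normalized counts in irx3-2 on lincomycin against 651 to 915 on MS, and 515 to 520 in wild type on lincomycin against 821 to 1152 on MS. Of 8 tested root markers, EXPA7 and PHT1;1 fell and PLT2 rose in irx3-2, and EXPA7, EXPA18, PHT1;1 and SCR fell in wild type. The sum of 6 shoot apex and leaf primordium markers was 1106 to 1243 in irx3-2 on lincomycin against 819 to 1187 on MS, and 1400 to 1525 in wild type on lincomycin against 1016 to 1206 on MS. Of these 6, none was called in irx3-2, and in wild type STM and KNAT1 rose and GRF5 fell. Of these calls, PHT1;1 in irx3-2, and EXPA7, EXPA18, PHT1;1 and KNAT1 in wild type, held in all 8 fits without 1 library. PLT1, PLT2 and CUC2 were at 0 in at least 1 library, while SCR, SHR, AS1 and KNAT1 were above 100 in all. On lincomycin SCR (181 to 251) and SHR (168 to 237) made up most of the root marker sum. In wild type EXPA7 was at 8.24 and 2.46 on lincomycin against 81.2 and 56.7 on MS. The log2 change was negative for 7 of the 8 tested root markers in wild type and for 5 in irx3-2. Over all genes tested the median change was 0.02 in wild type and 0.04 in irx3-2, and the share with a negative change was not counted. Of all genes tested, 17.2% fell and 12.0% rose in wild type, and 18.0% fell and 15.8% rose in irx3-2. The marker lists are too short to set against these shares. How much root each library held was not measured. The part of these tissues in the SAUR, GH3 and IAA results was not tested.

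The GH3 enzymes conjugate auxin to amino acids. Summed over 8 members, normalized counts were 1622 and 1682 in irx3-2 on lincomycin against 2224 and 2200 on MS, and 2001 and 1957 in wild type on lincomycin against 2542 and 2321 on MS. In irx3-2, 3 of 7 tested members fell and 1 rose; in wild type, 5 fell and 1 rose. GH3.5, GH3.6 and GH3.9 fell and GH3.17 rose in both.

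GH3.9, which influences root growth, had 11.4 and 19.6 normalized counts in irx3-2 on lincomycin against 96.4 and 129 on MS. In wild type it had 10.003 and 18.4 on lincomycin against 121 and 88.7 on MS. It fell by 2.82 ± 0.41 (adjusted p = 0.000402) in irx3-2 and by 2.84 ± 0.41 (adjusted p = 0.000439) in wild type, the largest fall of the family in both genotypes. GH3.6 (DFL1), the highest of the family on MS, had 546 and 526 in irx3-2 on lincomycin against 1052 and 975 on MS, and 706 and 765 in wild type on lincomycin against 1175 and 1074 on MS. It fell by 0.92 ± 0.11 in irx3-2 (adjusted p = 8e-05) and by 0.61 ± 0.11 in wild type (adjusted p = 0.00154). GH3.5 (WES1) fell by 0.90 ± 0.16 in irx3-2 (adjusted p = 0.00141) and by 0.55 ± 0.16 in wild type (adjusted p = 0.0241; up to 0.145 without any one of the 4 wild-type libraries).

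GH3.17 (VAS2), which joins auxin to glutamate and restrains hypocotyl growth, went the other way. It had 665 and 664 normalized counts in irx3-2 on lincomycin against 489 and 453 on MS, and 910.3 and 835 in wild type on lincomycin against 527 and 489 on MS. It rose by 0.50 ± 0.11 in irx3-2 (adjusted p = 0.006; 0.0505 without irx3-2 lincomycin replicate 2) and by 0.78 ± 0.11 in wild type (adjusted p = 0.000396).

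GH3.3 and GH3.2 fell in wild type and were not called in irx3-2. GH3.3 had 180 and 213 normalized counts in irx3-2 on lincomycin against 164 and 173 on MS. In wild type it had 72.4 and 48.6 on lincomycin against 175 and 163 on MS. The 2 wild-type lincomycin libraries stood apart below all 6 others, a fall of 1.49 ± 0.22 (adjusted p = 0.000536), whereas in irx3-2 the change was 0.21 ± 0.22 (adjusted p = 0.497). GH3.2 had 52.5 and 51.6 in irx3-2 on lincomycin against 107 and 70.8 on MS, and 40.6 and 36.3 in wild type on lincomycin against 156 and 128 on MS. Its change was −0.73 ± 0.28 (adjusted p = 0.066) in irx3-2 and −1.86 ± 0.28 (adjusted p = 0.000565) in wild type. GH3.1 was near the detection limit on lincomycin, at 1.42 to 9.15, and at 11.6 to 21.2 on MS, and GH3.4 had 4 reads in all.

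**Figure D3:**
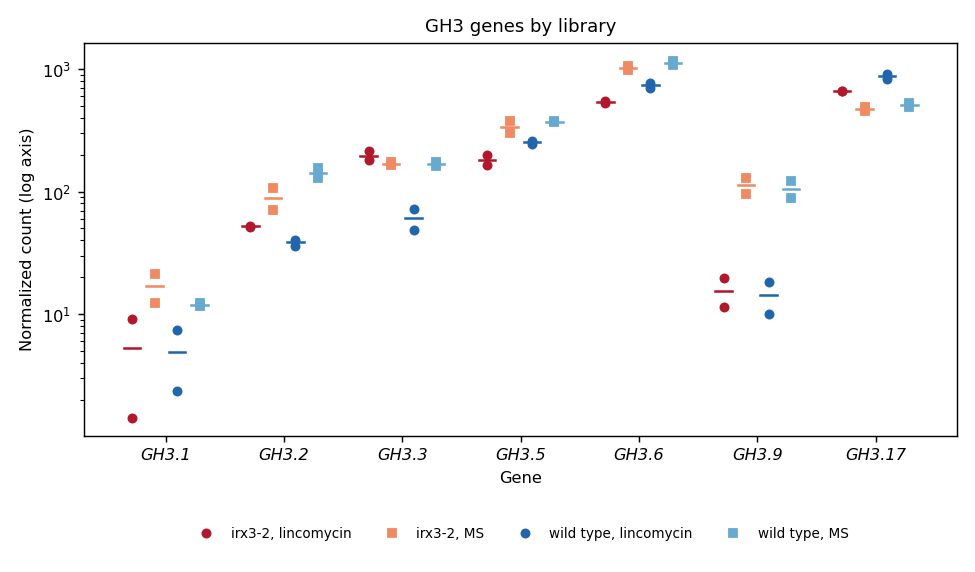
Normalized counts (log axis) of the 7 tested GH3 genes in every library, in the order irx3-2 on lincomycin, irx3-2 on MS, wild type on lincomycin and wild type on MS; bars are group means of 2 libraries. For GH3.3 the wild-type lincomycin points, at 72.4 and 48.6, lie below the other groups, and GH3.9 is low on lincomycin in both genotypes.

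The AUX/IAA genes encode the repressors. The 32 IAA members, ARFs included, summed to 13056 and 13155 normalized counts in irx3-2 on lincomycin against 15899 and 15158 on MS. In wild type the sums were 16123 and 16176 on lincomycin against 15478 and 15964 on MS. The irx3-2 lincomycin libraries were the low ones. Of 24 tested AUX/IAA genes, 7 fell and 2 rose in irx3-2, and 1 fell and 2 rose in wild type. IAA26 rose in both; none fell in both. The 3 ARFs with IAA names were not called.

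IAA16, the highest AUX/IAA gene per kilobase, had 1721 and 1820 normalized counts in irx3-2 on lincomycin against 2974 and 2849 on MS. In wild type it had 2616 and 2538 on lincomycin against 2923 and 2809 on MS. It fell by 0.72 ± 0.09 in irx3-2 (adjusted p = 0.000121) and changed by −0.15 ± 0.09 in wild type, which was not called (adjusted p = 0.227). IAA29, a target of PIF factors in shade, had 38.3 and 27.4 in irx3-2 on lincomycin against 132 and 77.9 on MS, and 56.5 and 57.8 in wild type on lincomycin against 73.5 and 71.3 on MS. It fell by 1.62 ± 0.32 in irx3-2 (adjusted p = 0.00286), and the wild-type change of −0.34 ± 0.32 was not called. IAA1 and IAA3 (SHY2, a repressor in the root meristem) fell by 0.78 ± 0.21 and 0.74 ± 0.21 in irx3-2 (adjusted p = 0.017 and 0.0206). IAA2, IAA4 and IAA27 fell there by 0.47 to 0.67. IAA1, IAA3 and IAA4 were not called without either irx3-2 lincomycin library or irx3-2 MS replicate 1 (adjusted p up to 0.122), IAA2 without lincomycin replicate 3 of irx3-2 (0.0659) and IAA27 without lincomycin replicate 2 (0.0774). Of the exon bases of IAA3, 39.6% lie within the span of AT1G04230 on the opposite strand, which had 132 and 134 in irx3-2 on lincomycin against 85.4 and 56.6 on MS.

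IAA19 (MSG2), a repressor in hypocotyl bending whose upstream stretch above holds 3 copies of TGTCTC and 1 G-box, had 11.4 and 17.0 normalized counts in irx3-2 on lincomycin against 41.3 and 19.5 on MS. Wild type had 15.9 and 18.4 on lincomycin against 47.5 and 59.6 on MS. It fell in wild type (−1.58 ± 0.47, adjusted p = 0.0272) and was not called in irx3-2 (−0.98 ± 0.47, adjusted p = 0.13). The call was lost without any one of the 4 wild-type libraries (adjusted p up to 0.149). IAA7 (AXR2) had 1732 and 1881 in irx3-2 on lincomycin against 2192 and 2145 on MS, and 2514 and 2756 in wild type on lincomycin against 2051 and 2142 on MS. It rose by 0.33 ± 0.09 in wild type (adjusted p = 0.0244) and changed by −0.26 ± 0.09 in irx3-2 (adjusted p = 0.0531); the rise was also lost without any one of the 4 wild-type libraries (adjusted p up to 0.193). IAA26 (PAP1) had 615 and 535 in irx3-2 on lincomycin against 322 and 143 on MS, and 535 and 637 in wild type on lincomycin against 190 and 400.1 on MS. It rose by 1.41 ± 0.37 in irx3-2 (adjusted p = 0.0135) and by 1.08 ± 0.37 in wild type, just under the threshold (adjusted p = 0.05 after rounding). Its call was lost in irx3-2 without either lincomycin library or MS replicate 2 of that genotype (adjusted p up to 0.0991), and in wild type in 5 of 8 fits without 1 library (adjusted p up to 0.337).

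IAA32, which lacks the degron core, had 49.0 and 55.5 normalized counts in irx3-2 on lincomycin against 13.8 and 0 on MS. The wild-type libraries had 45.3 and 44.9 on lincomycin against 15.3 and 2.91 on MS. All lincomycin libraries lay above all MS libraries. It rose in irx3-2 (3.79 ± 1.06, adjusted p = 0.0188; up to 0.0977 without either irx3-2 lincomycin library or irx3-2 MS replicate 2) and was not called in wild type (2.53 ± 1.06, adjusted p = 0.101), and the MS groups rest on 10 reads in irx3-2 and 12 in wild type. Of the exon bases of IAA32, 44.2% lie within the span of AT2G01210 on the opposite strand, at 32.7 to 49.8 in all libraries. Of the AUX/IAA genes with known dominant mutants, IAA12 (BDL), IAA14 (SLR), IAA17 (AXR3) and IAA28 were not called, with log2 changes of 0.04, 0.27, −0.32 and −0.53 in irx3-2 and −0.42, 0.40, −0.02 and −0.76 in wild type. With the core, 7 of 21 tested AUX/IAA genes fell and 1 rose in irx3-2. Without it, 1 of 3 rose there, which was IAA32 with the limits just given. In wild type, 1 of the 21 with the core fell and 2 rose, and none of the 3 without it was called. Over all genes tested, 18.0% fell and 15.8% rose in irx3-2, and 17.2% fell and 12.0% rose in wild type.

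**Figure D4:**
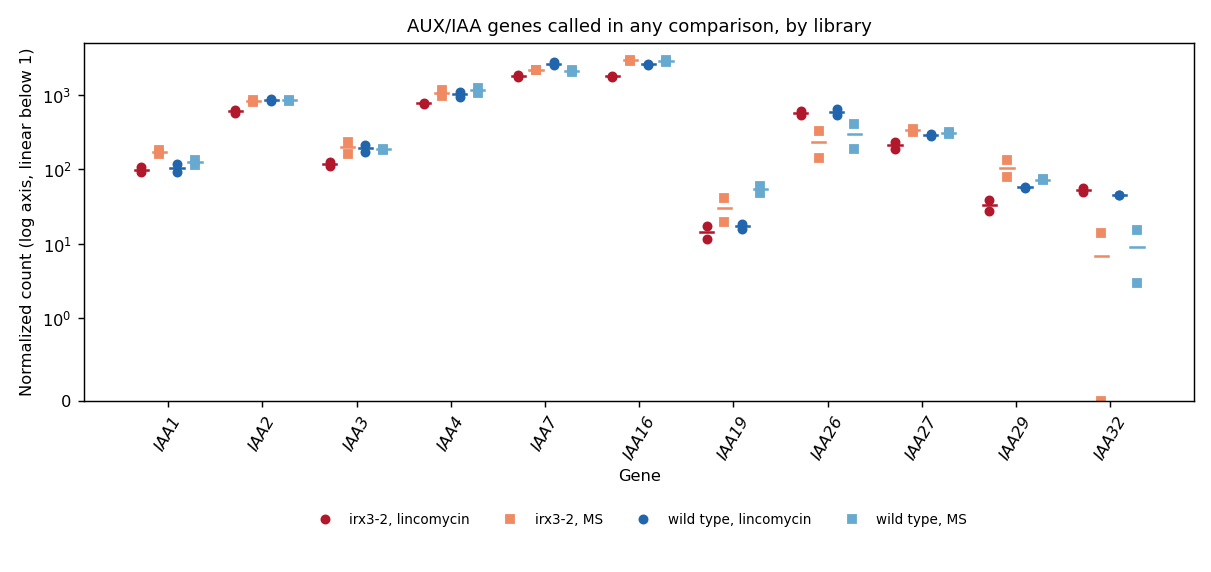
Normalized counts (log axis above 1, linear below) of the 11 AUX/IAA genes called in any comparison, in every library, in the order irx3-2 on lincomycin, irx3-2 on MS, wild type on lincomycin and wild type on MS; bars are group means of 2 libraries. IAA16, IAA2 and IAA7 are lower in irx3-2 than in wild type on lincomycin, and IAA32 is high on lincomycin in both genotypes.

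Without lincomycin the genotypes did not differ by the test. On MS, 0 of 90 members were called between irx3-2 and wild type by limma, edgeR or DESeq2, where limma called 0.217% of all genes, 0.158% higher and 0.0593% lower. At an unadjusted p below 0.05 there were 4 members by limma: SAUR32, SAUR16, IAA12 and GH3.2. The family medians were 0.03 for SAUR, −0.05 for IAA and −0.11 for GH3 members, with −0.01 over all genes, and over the alternatives they spanned −0.01 to 0.14, −0.09 to 0.02 and −0.15 to 0.02. With 2 libraries a group this does not show that the levels are alike.

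On lincomycin, 5 members differed between irx3-2 and wild type, 1 higher and 4 lower, where 5.68% of all genes were called, 3.35% higher and 2.33% lower. GH3.3 was higher in irx3-2, with the values given above (1.70 ± 0.22, adjusted p = 0.00241). IAA16 was lower by −0.54 ± 0.09 (adjusted p = 0.00696), IAA7 by −0.54 ± 0.09 (adjusted p = 0.00956) and GH3.6 by −0.45 ± 0.11 (adjusted p = 0.0347). IAA2 had 627 and 572 normalized counts in irx3-2 against 889 and 835 in wild type (−0.52 ± 0.11, adjusted p = 0.0198). No SAUR member was called, and the SAUR median was −0.07, against −0.22 for IAA members, −0.10 for GH3 members and 0.01 for all genes. The GH3 median had no steady sign: it was 0.42 without irx3-2 replicate 2, 0.35 without wild-type replicate 3 and −0.39 without irx3-2 replicate 3, and 0.13 by DESeq2 and 0.12 by edgeR. The SAUR median turned to 0.03 without irx3-2 replicate 2. Without any one of the 4 lincomycin libraries, GH3.3 was the single member left, and the adjusted p of the others reached 0.113 to 0.307.

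The test of the difference between the responses, irx3-2 minus wild type, called 1 member, GH3.3, where 0.657% of all genes were called, 0.356% higher and 0.301% lower. Its response was 1.71 ± 0.32 higher on the log2 scale in irx3-2 (adjusted p = 0.0423). The call was lost without any one of the 2 irx3-2 lincomycin libraries or the 4 wild-type libraries (largest adjusted p = 0.23). IAA16 and IAA7 came next, at −0.56 ± 0.13 and −0.59 ± 0.13, with adjusted p of 0.0833 and 0.0856, and were not called. For the SAUR19 to SAUR24 run the differences spanned −0.79 to 1.68, for the SAUR61 to SAUR68 run −0.80 to 0.10, and none was called. The fall of 19 SAUR genes in both genotypes and the lack of a called SAUR difference are separate statements, since a missed threshold does not show equal responses.

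**Figure D5:**
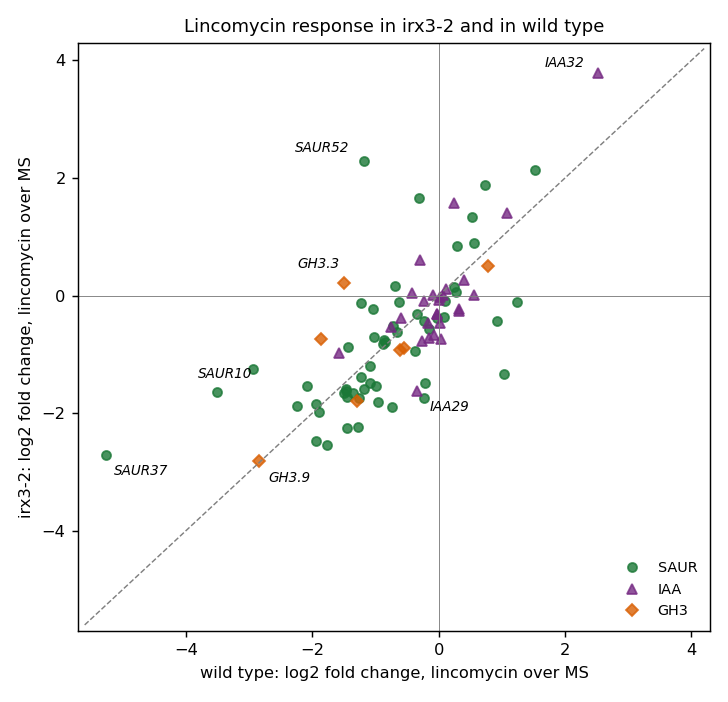
Each point is 1 of the 90 tested members, placed by its log2 fold change of lincomycin over MS in irx3-2 (vertical) and in wild type (horizontal); the dashed line marks equal responses and no library is shared between the axes. GH3.3 lies above the line at 0.21 in irx3-2 and −1.49 in wild type; SAUR52, far above the line, had 0 to 12.4 normalized counts in all libraries and was not called.

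Other parts of the auxin pathway were read from lists of known genes. Of 11 synthesis genes, 10 were tested. In irx3-2 the tryptophan aminotransferase TAA1 (−0.62) and the flavin monooxygenases YUC6 (−0.97) and YUC9 (−2.66) fell and YUC7, at 3.54 normalized counts or less on MS, rose (3.64); in wild type TAR2 (−1.02) and YUC8 (−1.02) fell. Of 6 receptors, TIR1 rose in both genotypes, with 1747 and 1787 normalized counts in irx3-2 on lincomycin against 1188 and 1242 on MS, and 1777 and 1817 in wild type on lincomycin against 1281 and 1328 on MS. AFB3 fell in both, by 0.96 in irx3-2 and 0.42 in wild type, and AFB1 fell in irx3-2 (−0.41). Of 15 ARFs, which include the 3 with IAA names, ARF4 rose in both (0.80 in irx3-2, 0.70 in wild type), ARF3 fell in irx3-2 (−0.44) and ARF1 rose in wild type (0.38). Among 5 TOPLESS corepressors only TPR4 was called, lower in both.

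All 15 transport genes were tested. The exporters ABCB1 and PIN3 and the importer LAX1 rose in both genotypes. In irx3-2, AUX1, LAX2, LAX3, PIN4, PIN5 and PIN7 fell; in wild type PIN2, the root exporter of gravitropism, fell by 2.90 ± 0.46, with 13.5 and 14.1 normalized counts on lincomycin against 121 and 98.9 on MS. ABCB4 was the one gene of these lists called in the test of the difference. It had 896 and 913 in irx3-2 on lincomycin against 518 and 519 on MS, and 526 and 558 in wild type on lincomycin against 791 and 663 on MS. It rose in irx3-2 (0.80 ± 0.12) and fell in wild type (−0.42 ± 0.12), a difference of 1.22 ± 0.17 (adjusted p = 0.0101). The difference was not called without any one of the 4 lincomycin libraries (adjusted p up to 0.094), nor the wild-type fall without either lincomycin library or MS replicate 2 of that genotype (up to 0.144). Of the proton pumps on which SAUR proteins act, AHA2 fell in both (−0.32 in irx3-2, −0.39 in wild type) and AHA1 was not called. HAT2, an auxin-induced homeobox gene, fell by 0.54 in irx3-2 and by 0.94 in wild type. Of 3 shade genes read by PIF factors, PIL1 (−1.65) and ATHB2 (−0.97) fell in irx3-2, and none was called in wild type. Of 9 auxin inactivation and release genes, DAO2 (1.29) and IAR3 (0.44) rose and ILL6 fell (−0.81) in irx3-2, and IAMT1 fell in wild type (−2.03). Over all genes tested, 33.8% were called for lincomycin in irx3-2 and 29.2% in wild type. Of the transport genes 66.7% and 33.3% were called, of the synthesis genes 40.0% and 20.0%, and of the ARFs 13.3% in each. These lists are short, so such calls do not by themselves set the auxin pathway apart. Of the pathway calls for lincomycin, 10 of 27 in irx3-2 and 8 of 15 in wild type held in all 8 fits without 1 library. TIR1, ARF4, PIN3 and ABCB1 did so in both genotypes, AFB3, AUX1, PIN4, LAX3, ABCB4 and ILL6 in irx3-2, and PIN2, LAX1, IAMT1 and HAT2 in wild type.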

How the data were processed

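RNA of 8 seedling libraries in 4 groups was sequenced after preparation with an Illumina kit. Trimmomatic, FastQC, featureCounts, DESeq2 and TopHat2 2.1.1, with TAIR10 as genome, are named in the submitters' processing notes; strand setting and treatment of reads matching several places are not given in the sources used here. The authors deposited 4 tables with the same 8 columns of normalized counts, a signal that each library's size factor turns back into reads. Per the file headers they also deposited log2 fold changes, their Wald statistic (a score, the change over its standard error), p-values and adjusted p-values, used here only for a count of shared calls. All deposited normalized counts (100% within 0.01) were whole multiples of 1 number per library, so whole reads were recovered.

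The main test was limma 3.58.1 (R 4.3.3) with a mean-variance trend on log2(normalized count + 1), two-sided, for the 20251 genes that reached 10 normalized counts in 2 or more libraries. One fit took all 8 libraries with 4 group means, leaving 4 residual degrees of freedom. Benjamini-Hochberg adjustment ran over every gene tested, with a threshold of 0.05. Log2 fold changes are on the scale with that pseudocount, which understates changes of low genes, and ± after a log2 change is its SE. The interaction is the log2 response to lincomycin of irx3-2 less that of wild type. Run as alternatives on recovered reads, edgeR 4.0.16 with TMM called 34 members in wild type and 40 in irx3-2 for lincomycin, and DESeq2 1.42.0 called 32 and 38. The procedure was tested on simulated data for lincomycin in wild type, with 50 genes changed by each fold. It called 64% of halved genes, 80% of doubled genes and 100% of those changed 4-fold. Of unchanged genes it called 0.046%. Only well counted genes were changed, and all genes had the same simulated spread, so the outcome does not speak for low members.

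Positions, exon lengths, upstream and coding sequences came from RefSeq models of TAIR10.1, in which all 120 members were found. Members and gene lists were chosen with earlier results of these data known. Genes were named by rule: in each comparison and family the 3 largest rises and falls among calls, the highest member per kilobase, members with textbook roles, tandem runs, and called genes of the pathway lists; the extra examples SAUR52, SAUR32 and SAUR16 and those for overlaps were chosen after their values were seen.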

Additional observations from a re-analysis of the deposited data

Results flagged for a closer look

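GH3.3 was called by limma's interaction term, with a response to lincomycin 1.71 higher on the log2 scale in irx3-2 than in wild type. It was the single member called, where 0.657% of all genes were called. As given above, the call did not hold when single libraries were left out. It was also lost with the replicate block and with no filter on low values. The values behind it were 180 and 213 normalized counts in irx3-2 on lincomycin against 164 and 173 on MS, and 72.4 and 48.6 in wild type on lincomycin against 175 and 163 on MS. GH3.2 had a difference of 1.12 ± 0.40 by limma and was not called (adjusted p = 0.26). The upstream stretches of GH3.2 and GH3.3 hold an auxin response element. So does that of GH3.5, which fell more in irx3-2 than in wild type. A link between the element and the genotype difference was not tested.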

How the results depend on the processing

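For lincomycin the count of members called stayed within 1.5 times under every alternative in irx3-2 (26 to 41, against 38) and under all but 1 in wild type (19 to 36, against 31; 19 without replicate 3 of wild type on lincomycin). Leaving out 1 library gave 19 to 36 in wild type and 26 to 40 in irx3-2. On MS it gave 0 or 1 member between genotypes, the 1 being without irx3-2 MS replicate 1. On lincomycin, 5 members differed between genotypes; leaving out 1 library gave 1 to 9, fitting only the groups compared gave 14, and the replicate block gave 1. For the interaction, with 1 member called, DESeq2 gave 3, no filter on low values gave 0, the replicate block gave 0, and leaving out 1 library gave 0 to 2. The causes were not tested, but the block leaves 2 residual degrees of freedom. No called member changed sign under any alternative. Of the calls, 24 of 38 in irx3-2 and 15 of 31 in wild type held in all 8 fits without 1 library, as did 1 of 5 between genotypes on lincomycin and 0 of 1 for the interaction. Deviations from the group mean correlated at −0.14 to 0.13 over 7 same-numbered pairs of libraries. With 2 libraries a group such deviations are mirror images, so these values cannot decide whether replicate numbers pair the samples. With the replicate block, lincomycin calls numbered 34 in irx3-2 and 25 in wild type. The SAUR median for lincomycin ranged from −1.56 to −0.70 in irx3-2 and −1.14 to −0.70 in wild type over the alternatives, and size factors from nuclear genes alone gave −0.91 and −0.92. The authors' deposited tables call 37 members for lincomycin in irx3-2 and 30 in wild type, of which 37 and 29 were called here too. MS libraries had 6732614 to 8304658 reads outside the plastid genome against 12607417 to 14069944 on lincomycin, so low members were measured more coarsely on MS.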
